A study of Homo sapiens with 9 samples.

Results

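The 271 genes described here are protein-coding genes of HCT116 cells whose mRNA level dropped from WT to the libraries labelled A20-KO and stayed at about the same level when A20 was put back. They were chosen from the expression values themselves. A gene belongs to the set if its largest group mean was at least 1 FPKM, if its ratio of the A20-KO to the WT mean was at most 0.57, if its ratio of the A20-RE to the A20-KO mean lay between 0.8 and 1.25, and if each of its 3 WT values was above each of its 6 other values. FPKM counts sequenced fragments relative to the length of the gene and to all mapped fragments of the library, and 0.1 FPKM was added to each mean before every ratio. The set holds 271 of the 11337 protein-coding genes that reached 1 FPKM in a group mean (2.39%), called eligible genes from here on, and the whole table lists 58735 genes. Because all 9 libraries were used to choose the genes, their differences between groups are described and not tested.

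HCT116 is an established human colorectal carcinoma cell line. RNA of 3 groups of HCT116 cells was sequenced with 3 libraries per group, numbered 1 to 3 in the labels. The groups were wild-type cells (WT), cells with the genotype A20-KO, made by CRISPR knockout of A20, and A20-KO cells with A20 brought back, which the labels call OE and the study calls rescue (A20-RE). A20, the product of TNFAIP3, is a ubiquitin-editing enzyme that restrains NF-kB signalling, and the study used these cells to look for genes that follow A20. Per the Methods, guide RNAs against A20 were carried by the LentiCRISPR v2 vector, infected cells were selected with puromycin, and the A20 expression vector was pCMV-3xFlag-A20, whose CMV promoter is not that of TNFAIP3. The sources do not say whether the A20-KO cells were 1 clone, which guide made them, whether WT cells carried a control vector, or whether the 3 libraries of a group came from separate cultures, so p-values measure only the spread between these libraries, which may be technical.

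TNFAIP3 mRNA did not drop under the A20-KO label, that is, in the libraries labelled A20-KO. It was 0.869, 0.8002 and 0.736 FPKM in WT, 1.93, 2.16 and 1.04 FPKM under the A20-KO label, and 58.7, 66.5 and 56.5 FPKM in A20-RE, so that the 3 groups did not overlap and WT was the lowest. Reads of an edited gene still count on it, but every direction given here between WT and A20-KO rests on the label. Between 23406222 and 24963691 reads per library were recovered from the table. Mitochondrial genes took 7.52% to 10.1% of them in WT, 9.18% to 11.9% under the A20-KO label, and 11.97% to 13.95% in A20-RE. All 10 epithelial markers checked were at or above 1 FPKM in every library, with summed levels of 1179 to 1579 FPKM in WT, 1816 to 2375 under the A20-KO label, and 1857 to 2420.3 in A20-RE. Of 6 fibroblast markers only COL1A1 reached 1 FPKM, and the list summed to 4.60 to 5.86 FPKM in WT, 12.6 to 15.1 under the A20-KO label, and 11.1 to 12.3 in A20-RE. Of 4 neural markers only ENO2 did, with sums of 13.4 to 17.1, 39.04 to 47.4, and 72.6 to 82.05 FPKM. The 4 endothelial and 6 leukocyte markers were under 1 FPKM in every library, and the part of these markers in the results was not tested. In RNA pooled from many cells, fewer cells in one phase or state and less RNA per cell cannot be told apart.

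Much of the set belongs to the machinery of growing and dividing cells. A cell that enters the cycle switches on genes for replication and then for mitosis. E2F factors and the DREAM complex take part in the control of such genes, up or down, and bind short sequence elements near their start. Growing cells also make ribosomes in the nucleolus, where RNA polymerase I copies ribosomal RNA and a long series of assembly factors trims and packs it. HOX genes, a smaller part of the set, are transcription factors that keep the positional identity of a tissue and lie side by side in clusters on the chromosome.

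The size of the difference was moderate in most genes of the set. Their ratio of A20-KO to WT ran from 0.0838 to 0.5699 with a median of 0.51, against a median of 0.961 over all eligible genes. The ratio was above 0.5 in 148 genes and at most 0.33 in 12. In A20-RE the ratio to WT had a median of 0.477 (0.0932 to 0.688), and the ratio of A20-RE to A20-KO a median of 0.974. Over all eligible genes these medians were 0.941 and 0.971. Mean levels in WT went from 1.02 to 139 FPKM with a median of 9.42 FPKM. Of the 271 genes, 131 had a WT mean of at least 10 FPKM and 31 had one under 2 FPKM.

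In single libraries the set formed 1 block of high WT values and 2 blocks of low ones. On the log2(FPKM + 0.1) scale, relative to the WT mean, the median gene of the set stood at 0.21, -0.07 and -0.15 in WT libraries 1, 2 and 3. It stood at -0.96, -0.92 and -1.13 under the A20-KO label, and at -1.09, -1.01 and -1.08 in A20-RE. WT library 1 was the highest and the library labelled A20-KO with number 3 the lowest of the 9 by this median. The lowest WT value was at least 1.06 times the highest of the other 6 values, with a median gap of 1.54-fold, and the gap was at least 1.5-fold in 158 genes. The ranges of the libraries labelled A20-KO and A20-RE overlapped in 203 genes, A20-RE lay wholly below in 49, and wholly above in 19. The rule bears on these counts, since it limits the ratio of A20-RE to A20-KO. Neither these counts nor that of the 1.5-fold gap was made over all eligible genes. Whether the set differs from other genes here was therefore not tested. Replicates of the set spread much like those of other genes, with a median coefficient of variation of 14.8% in WT (14.2% over eligible genes), 11.2% under the A20-KO label (11.1%), and 7.51% in A20-RE (8.15%).

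**Figure D1:**
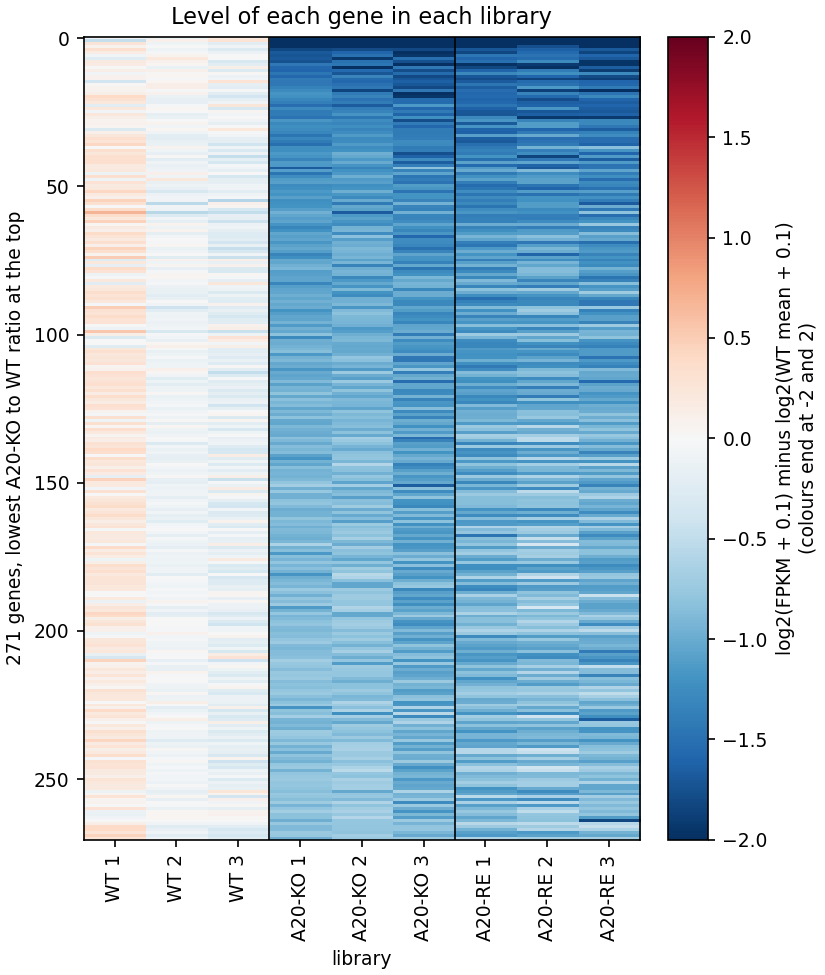
Each row is 1 of the 271 genes, ordered by its ratio of A20-KO to WT, and each column 1 library; colour gives log2(FPKM + 0.1) minus that of the WT mean. All 3 WT columns are pale and the 6 other columns blue, with WT library 1 slightly above the other WT libraries and no step between the A20-KO and A20-RE columns.

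The limits of the rule cut through a continuous spread. Just inside the limit of 0.57 lay TIMM8A, TTK and ORC5, with ratios of 0.5699, 0.5697 and 0.569, and just outside lay PRKACB, ABCD3 and SHLD3, with 0.571, 0.571 and 0.571. At the lower limit of A20-RE to A20-KO, DNAJC2, TMEM14B and ORC1 were inside with 0.801, 0.802 and 0.802, and BRCA2, ODC1 and SPATC1L outside with 0.796, 0.795 and 0.794. At its upper limit, CHD1, SMARCA2 and NIP7 were inside with 1.248, 1.230 and 1.229, and BCLAF1, ZNF195 and RINT1 outside with 1.251, 1.254 and 1.258. Every WT value lay above the other 6 in 2518 eligible genes (22.2%). In all, 452 eligible genes were at or under 0.57 with every WT value above the other 6. Of these, 121 were lower again in A20-RE (ratio to A20-KO under 0.8), 60 were higher again (over 1.25), and 271 form the set. Another 4 genes met the ratio limits but had a WT value within the range of the other groups.

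**Figure D2:**
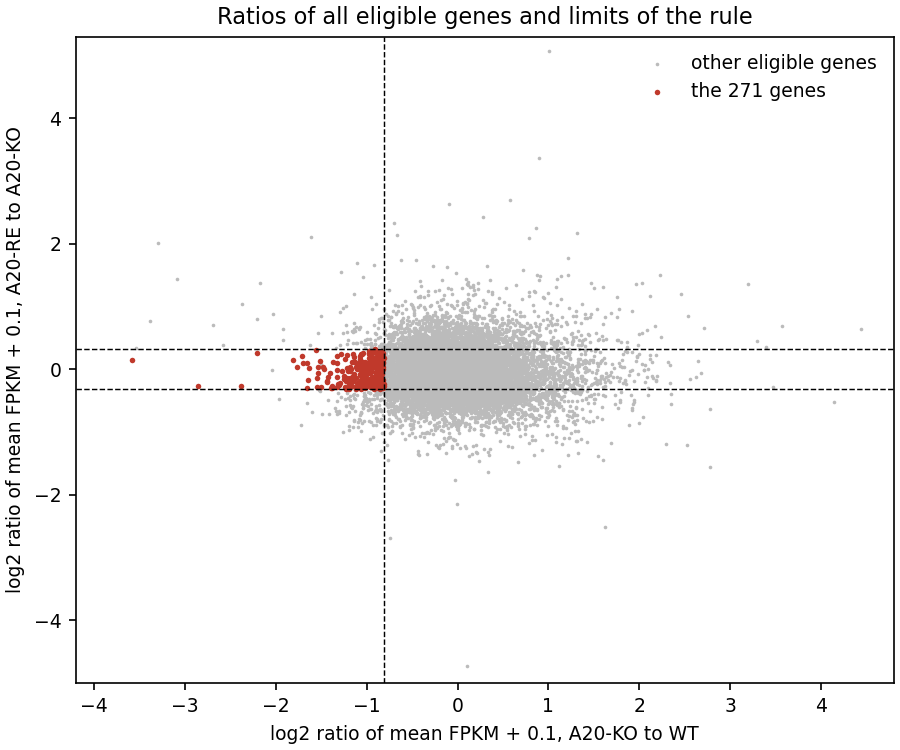
Each point is 1 of 11337 eligible genes, with the log2 ratio of A20-KO to WT on the horizontal axis and that of A20-RE to A20-KO on the vertical axis; dashed lines mark the limits of 0.57, 0.8 and 1.25. The 271 genes (red) fill the strip between the horizontal lines to the left of the vertical one and join the surrounding genes (grey) without a gap.

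Called means a Benjamini-Hochberg adjusted p-value under 0.05 over 21636 genes and an absolute log2 difference above 1 in limma. In A20-KO against WT, 120 of the 271 genes were called lower, where 2.08% of all genes tested were called lower and 4.91% higher. In A20-RE against WT it was 155, where 4.21% of all genes were called lower and 7.68% higher. In A20-RE against A20-KO, limma called 0 of the 271, where 2.39% of all genes were called in either direction, limma-voom on the recovered reads also called 0, and 16 had an unadjusted p-value under 0.05, 12 of them lower and 4 higher. The rule itself sets these counts, since it used the same contrasts. Its limits on the ratio of A20-RE to A20-KO leave few genes to call there, and the unadjusted count of all genes is given in the last section. The fold threshold divides the set, for 266 genes were called lower in A20-KO against WT at an absolute log2 difference above 0.8. The set's count was 79 without WT library 1 and 47 with a pseudocount of 1 FPKM. Counts over all genes at the limit of 0.8 in this contrast and with limma-voom are not given here.

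The rule was also read with 1 replicate number set aside at a time. Its limits were chosen with earlier results of these data known. The libraries of a group may also come from 1 culture, so this is no independent check. The rule was applied to the 6 libraries left when 1 replicate number was set aside, and the 3 libraries with that number were then looked up. Without number 1 the rule chose 205 genes, of which 125 (61.0%) also met every limit in the 3 libraries set aside, against 4.93% of eligible genes. Without number 2 it chose 404, of which 112 (27.7%) met them, against 1.57%. Without number 3 it chose 302, of which 125 (41.4%) met them, against 2.97%. The WT value set aside was above both others in 195, 402 and 297 of the chosen genes (95.1%, 99.5% and 98.3%). Of all eligible genes 44.8%, 44.7% and 43.7% had this order. The median ratio of A20-KO to WT in the libraries set aside was 0.462, 0.610 and 0.544, where eligible genes had 0.978, 0.973 and 0.937.

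The set was poor in genes with high GC content. The longest transcript of its genes had a median GC content of 42.1%, against 49.3% for eligible genes. With eligible genes cut into 5 equal classes from low to high GC, the set took 118, 90, 38, 20 and 5 genes, or 5.21%, 3.97%, 1.68%, 0.883% and 0.221% of each class. The libraries themselves differed along GC content. In the lowest class all eligible genes had a median log2 level, relative to the WT mean, of 0.24, -0.06 and -0.21 in the 3 WT libraries, -0.25, -0.20 and -0.44 under the A20-KO label, and -0.19, -0.14 and -0.23 in A20-RE. In the highest class the values were -0.37, 0.05 and 0.25 in WT, 0.31, 0.21 and 0.49 under the A20-KO label, and 0.11, 0.00 and 0.17 in A20-RE. WT library 1 ran opposite to the other 8 libraries. Within the lowest class the set's genes stood at 0.28, -0.08 and -0.25 in WT and between -0.90 and -1.17 in the 6 other libraries.

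Each library's values were corrected for GC content in 50 bins, a step added after seeing the data. Every WT value stayed above the 6 others in all 271 genes, which had been chosen for this order. Over all eligible genes the share with this order was 22.2% before the correction and was not counted after it. The median ratio of A20-KO to WT moved from 0.51 to 0.569 (0.0737 to 0.706). In 132 genes it passed the limit of 0.57, and in 47 the ratio of A20-RE to A20-KO left its limits. After the correction 115 of the 271 genes still met the whole rule, 156 did not, and 71 other genes came in. GC-corrected calls in A20-KO against WT numbered 73 of the 271 in place of 120. The count over all genes tested after the correction is not given here, so a change particular to the set cannot be read from it. What part the GC content of the libraries has in the membership of single genes was not tested. The number of genes that met the rule after the correction is given with each group.

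To describe what the genes do, 16 lists of complexes and processes were written after the set had been seen, and 34 broader lists were taken over from earlier work on these data. The 16 lists hold 121 of the 271 genes and the 34 lists hold 39, which together make 151 different genes. The other 120 are in no list. The lists show what the set contains and are no evidence that the set is rich in it. In each gene of the set described below, the rule itself sets WT above the other values and A20-RE near A20-KO. In the 8 lists on replication, mitosis and repair, 69 genes of the set had a median ratio of A20-RE to A20-KO of 0.883, and 54 of them had an A20-RE mean below that of A20-KO. In the lists on ribosome assembly and RNA polymerases I and III, 29 genes had a median of 1.03, with 12 below and 17 above. Nuclear pore and transport genes had 1.01 (5 below, 7 above), and the genes in no list 0.986 (66 below, 54 above). These differences lie inside limits that the rule set, and all eligible genes had a median of 0.971. How many eligible genes lay below or above was not counted, here or for the lists that follow.

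Replication starts where the origin recognition complex and CDC6 load the MCM helicase on DNA. Of 30 tested genes of replication origins and helicase, 6 belonged to the set. CDC6, the loading factor (chr17:40287633-40304657 on GRCh38), was at 29.8, 24.2 and 24.4 FPKM in WT, 11.4, 11.6 and 11.3 FPKM under the A20-KO label, and 9.52, 9.27 and 9.695 FPKM in A20-RE. ORC1, the largest subunit of the origin recognition complex (chr1:52372829-52404459), was at 18.4, 14.2 and 15.1 FPKM in WT, 6.76, 6.92 and 7.05 FPKM under the A20-KO label, and 5.77, 5.195 and 5.597 FPKM in A20-RE. In both, WT stood far above the rest, and all A20-RE values lay under those of the libraries labelled A20-KO. The other 4 were ORC5, of the same complex, MCMBP, a binding partner of the MCM proteins, MCM8, a helicase of recombination, and TIPIN, which steadies stalled forks, with ratios of A20-KO to WT from 0.405 (TIPIN) to 0.569 (ORC5). All 6 had an A20-RE mean below that of A20-KO. Only 1 of the 6 met the rule after GC correction.

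The MCM helicase itself was outside the set. Of the 24 other genes of this list, 12 were called lower in A20-KO against WT and 20 in A20-RE against WT, with median log2 differences of -0.95 and -1.58. In 16 of the 24 the ratio of A20-KO to WT was at most 0.57 with separate WT values, but A20-RE was under 0.8 of A20-KO. MCM4, a subunit of the helicase ring, was at 64.1, 58.7 and 60.7 FPKM in WT, 25.3, 26.5 and 20.7 FPKM under the A20-KO label, and 15.1, 15.1 and 15.4 FPKM in A20-RE. Its log2 difference was -1.34 in A20-KO against WT and -0.65 in A20-RE against A20-KO (limma, adjusted p = 1.4e-04 and 0.0086). Its levels in A20-RE lay wholly below those of the libraries labelled A20-KO.

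DNA polymerases and their clamp loaders gave 6 of 29 tested genes. RFC3, a subunit of the clamp loader (chr13:33818049-33966558), was at 24.9, 18.1 and 17.6 FPKM in WT, 8.15, 7.19 and 6.85 FPKM under the A20-KO label, and 6.61, 5.86 and 6.66 FPKM in A20-RE. POLE2, the second subunit of polymerase epsilon (chr14:49643555-49688422), was at 10.4, 7.24 and 7.403 FPKM in WT, 3.27, 3.73 and 3.44 FPKM under the A20-KO label, and 2.88, 3.05 and 2.61 FPKM in A20-RE. The WT libraries were clearly apart in both, and the other 6 values lay close together. POLE3, of the same polymerase, PRIM1, the catalytic primase, POLD3, of polymerase delta, and ATAD5, which unloads the clamp, had ratios of 0.483, 0.475, 0.486 and 0.553. Of the 6, 2 met the rule after GC correction. Of the 23 others of the list, 2 were called lower in A20-KO against WT, 1 higher, and 14 lower in A20-RE against WT.

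Genes of nucleotide synthesis made up another 6, out of 26 tested. RRM1, the large subunit of ribonucleotide reductase, was at 55.4, 43.9 and 47.4 FPKM in WT, 22.1, 21.4 and 18.97 FPKM under the A20-KO label, and 16.7, 16.1 and 17.5 FPKM in A20-RE. CTPS1, which makes CTP, was at 9.04 ± 0.309, 3.39 ± 0.116, and 2.73 ± 0.0165 FPKM (means ± SD, n = 3, in WT, the libraries labelled A20-KO and A20-RE, as in all such triplets from here on). PPAT, PFAS and ADSL, enzymes of purine synthesis, and DCK, the deoxycytidine kinase, had ratios of 0.5504, 0.466, 0.464 and 0.488. WT lay above the rest in each, and 2 of the 6 met the rule after GC correction. Of the 20 other genes 2 were called lower in A20-KO against WT and 7 in A20-RE against WT.

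The E2F, RB and DREAM list, the regulators of these genes, had 5 of 20 tested genes in the set. E2F8, a repressor of the E2F family (chr11:19224063-19241620), was among the 10 genes with the lowest ratio and was at 8.504, 7.81 and 6.52 FPKM in WT, 2.75, 2.74 and 1.56 FPKM under the A20-KO label, and 1.86, 1.95 and 1.87 FPKM in A20-RE. E2F7, its close relative, was at 4.69 ± 0.918, 2.54 ± 0.2799, and 2.2 ± 0.363 FPKM, and E2F2, an activator of the family, at 10.97 ± 1.901, 4.32 ± 0.216, and 3.51 ± 0.0696 FPKM. RBL1, the p107 pocket protein, and LIN9, a core subunit of DREAM, had ratios of 0.424 and 0.449. Of the 5, 3 met the rule after GC correction. Of the 15 other genes 12 lay below 0 in A20-KO against WT, with a median log2 difference of -0.40, and 4 were called lower in A20-RE against WT.

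The promoters of CDC6, RFC3 and POLE2 are shown because each carries an E2F element close to a RefSeq start. All sequences are RefSeq windows of GRCh38.p14, 250 bases before to 50 after a start of the gene in RefSeq. They are read 5′ to 3′ on the strand of the gene, and capitals mark the match. The RefSeq start can lie apart from the GENCODE 29 start printed with the gene. In every gene shown but KIF11 it lies inside the printed span. Positions of matches refer to the RefSeq start. For E2F the 4 octamers TTTCCCGC, TTTCGCGC, TTTGCCGC and TTTGGCGC were searched on both strands. The match begins at position 8 after the start in CDC6 (chr17:40287629-40287928, plus strand), 55 bases before the start in RFC3 (chr13:33817899-33818198, plus strand), and 5 bases before it in POLE2 (chr14:49688165-49688464, minus strand).
CDC6: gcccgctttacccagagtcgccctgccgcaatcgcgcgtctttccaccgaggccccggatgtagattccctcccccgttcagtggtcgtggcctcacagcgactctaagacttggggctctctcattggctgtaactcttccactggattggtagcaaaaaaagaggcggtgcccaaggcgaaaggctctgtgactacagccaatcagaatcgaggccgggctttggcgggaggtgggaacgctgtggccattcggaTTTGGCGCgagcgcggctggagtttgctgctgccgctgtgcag
RFC3: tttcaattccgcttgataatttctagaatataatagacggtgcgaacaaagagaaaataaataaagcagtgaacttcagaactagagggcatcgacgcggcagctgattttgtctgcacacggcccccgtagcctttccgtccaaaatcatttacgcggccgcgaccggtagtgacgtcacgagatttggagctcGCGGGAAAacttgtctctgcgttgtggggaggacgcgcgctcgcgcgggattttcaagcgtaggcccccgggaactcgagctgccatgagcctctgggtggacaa
POLE2: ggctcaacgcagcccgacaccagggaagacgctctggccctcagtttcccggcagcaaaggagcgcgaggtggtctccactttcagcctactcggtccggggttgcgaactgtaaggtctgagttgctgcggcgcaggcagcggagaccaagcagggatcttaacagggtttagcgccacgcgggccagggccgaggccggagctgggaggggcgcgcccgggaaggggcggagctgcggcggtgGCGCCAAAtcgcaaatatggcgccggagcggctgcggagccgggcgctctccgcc

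Mitosis was a large block of the set. Of 49 tested genes of the kinetochore and spindle checkpoint, 11 belonged to it, and in all 11 the A20-RE mean was below that of A20-KO. BUB1, a checkpoint kinase (chr2:110637698-110678114), was at 27.9, 23.2 and 21.9 FPKM in WT, 13.8, 15.2 and 11.9 FPKM under the A20-KO label, and 10.6, 12.01 and 11.7 FPKM in A20-RE. NDC80, which ties the kinetochore to microtubules (chr18:2571511-2616635), was at 14.8, 11.7 and 11.3 FPKM in WT, 5.61, 6.42 and 6.304 FPKM under the A20-KO label, and 5.41, 5.19 and 5.69 FPKM in A20-RE. BUB1B, a partner of BUB1 in the checkpoint, was at 21.6 ± 1.904, 9.92 ± 1.095, and 8.96 ± 1.07 FPKM, and TTK, the kinase at its head, at 16.9 ± 5.27, 9.56 ± 1.08, and 7.91 ± 0.368 FPKM. WT was the highest group in each. KNL1, SPDL1, ZW10 and KNTC1, of the outer kinetochore, and CENPU and SGO1, of the centromere, had ratios of A20-KO to WT between 0.485 (CENPU) and 0.556 (SGO1). After GC correction 1 of the 11 met the rule. Of the 38 other genes, 8 were called lower in A20-KO against WT and 22 in A20-RE against WT, with median log2 differences of -0.71 and -1.14.

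The list of spindle, centrosome and cytokinesis gave 18 of 46 tested genes, more than any other except ribosome biogenesis. TPX2, which activates Aurora A on the spindle and was one of the most abundant mRNAs of the set, was at 98.4, 79.7 and 81.7 FPKM in WT, 46, 50.6 and 45.1 FPKM under the A20-KO label, and 39.3, 40.8 and 43.5 FPKM in A20-RE. KIF11, the kinesin that pushes the poles apart (chr10:92593286-92655395), was at 23.3, 17.6 and 16.3 FPKM in WT, 9.84, 9.92 and 7.698 FPKM under the A20-KO label, and 8.36, 8.38 and 7.504 FPKM in A20-RE. The groups labelled A20-KO and A20-RE were near each other in both and WT stood above them. ANLN and ECT2, which build and place the cleavage furrow, were at 32.5 ± 7.31, 16.4 ± 2.998, and 17.3 ± 1.51 FPKM and at 26.6 ± 4.11, 14.4 ± 2.43, and 14.4 ± 1.21 FPKM. PLK4, STIL and SASS6, which start a new centriole, had ratios of 0.528, 0.5305 and 0.4803, and the kinesins KIF20B, KIF15 and KIF14 of 0.4402, 0.531 and 0.546. Of the other 8 genes, HAUS6, CEP192, TUBGCP3 and CEP135 serve the spindle or centrosome, and BORA, MASTL and FBXO5 the entry into mitosis, with CKAP2L a spindle protein as well. BORA shares 37% of its exonic bases with DIS3 on the other strand, which had 19902 reads over the 9 libraries against 2453 for BORA. MASTL shares 12.2% with YME1L1 (36698 reads against 4215). Whether reads were counted by strand is not stated in the sources. Of the 18, 5 met the rule after GC correction. Of the 28 other genes 26 lay below 0 in A20-KO against WT, with a median log2 difference of -0.63, and 6 were called lower in A20-RE against WT.

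BUB1, NDC80 and KIF11 are shown for their CHR element, the hexamer TTTGAA or TTCGAA on either strand, which the DREAM complex is known to bind in mitotic genes. The match begins at position 2 after the start in BUB1 (chr2:110678014-110678313, minus strand) and 28 bases before it in KIF11 (chr10:92592880-92593179, plus strand). NDC80 (chr18:2571307-2571606, plus strand) has 2 matches that touch without overlap, the first 3 bases before the start and the second at position 4 after it.
BUB1: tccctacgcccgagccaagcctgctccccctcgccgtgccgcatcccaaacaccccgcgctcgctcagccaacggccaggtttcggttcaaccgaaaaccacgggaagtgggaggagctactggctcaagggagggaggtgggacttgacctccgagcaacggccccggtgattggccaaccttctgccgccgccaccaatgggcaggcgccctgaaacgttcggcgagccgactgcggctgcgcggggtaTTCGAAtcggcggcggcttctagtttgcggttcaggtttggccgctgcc
NDC80: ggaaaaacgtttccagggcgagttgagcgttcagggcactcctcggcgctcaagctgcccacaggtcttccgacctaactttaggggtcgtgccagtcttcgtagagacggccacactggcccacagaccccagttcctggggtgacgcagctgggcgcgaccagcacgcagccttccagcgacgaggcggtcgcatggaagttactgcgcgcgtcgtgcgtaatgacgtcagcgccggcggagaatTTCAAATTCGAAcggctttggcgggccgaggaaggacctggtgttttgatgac
KIF11: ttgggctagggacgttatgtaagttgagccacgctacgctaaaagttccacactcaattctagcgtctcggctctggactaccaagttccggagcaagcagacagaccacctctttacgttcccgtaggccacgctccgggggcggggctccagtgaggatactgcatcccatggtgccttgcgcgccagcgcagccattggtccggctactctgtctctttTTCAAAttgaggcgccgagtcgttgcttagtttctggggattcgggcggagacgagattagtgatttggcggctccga

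Of the 5 genes of the set on a list of proliferation genes used earlier (TPX2, BUB1, CDC6, BUB1B and E2F2), 3 met the rule after GC correction. The 36 tested genes of that list had median log2 differences of -0.85 in A20-KO against WT and -1.41 in A20-RE against WT, where all genes tested had -0.01 and 0.03. Of the 31 outside the set, 10 were called lower in A20-KO against WT and 25 in A20-RE against WT. CDC25A, a phosphatase of cell-cycle entry, and CCNA2, cyclin A2, had the lowest values next to MCM4, with log2 differences of -1.51 and -1.31 (limma, adjusted p = 4.8e-05 and 1.9e-04). Both lay wholly lower in A20-RE than in the libraries labelled A20-KO, with means of 11.8, 4.06 and 3.16 FPKM for CDC25A and 48.7, 19.5 and 14.98 FPKM for CCNA2.

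DNA repair and the damage checkpoint gave 15 of 51 tested genes. XRCC5, the Ku80 subunit that holds broken ends, was the third most abundant gene of the set and was at 141, 109.7 and 113 FPKM in WT, 66.6, 71.7 and 60.96 FPKM under the A20-KO label, and 59.3, 62.3 and 66.4 FPKM in A20-RE. MSH6, which reads mismatches in new DNA, was at 10.95, 10.1 and 10.6 FPKM in WT, 4.47, 4.46 and 3.47 FPKM under the A20-KO label, and 4.59, 4.81 and 3.87 FPKM in A20-RE. In MSH6 the A20-KO and A20-RE ranges overlapped, and in XRCC5 they did as well. MSH6 shares 16.2% of its exonic bases with FBXO11 on the other strand. CHEK1, the checkpoint kinase, was at 9.22 ± 1.27, 4.697 ± 0.147, and 4.02 ± 0.0771 FPKM. DCLRE1A, GEN1, RAD18, USP1 and XRCC2, all of repair of crosslinked, branched or stalled DNA, had ratios from 0.378 (DCLRE1A) to 0.4601 (XRCC2). BARD1, RBBP8, NBN, RMI1, BRCC3, RFWD3 and FANCB had ratios from 0.48 (BARD1) to 0.554 (FANCB). After GC correction 6 of the 15 met the rule. Of the 36 others, 7 were called lower in A20-KO against WT and 16 in A20-RE against WT. SMC3, of cohesin, and SMC2, of condensin, were the 2 genes of the set among 23 tested of those complexes, at 32.6 ± 5.996, 15.7 ± 1.54, and 15.2 ± 0.216 FPKM and at 7.83 ± 2.597, 3.57 ± 0.746, and 3.67 ± 0.3597 FPKM, and neither met the rule after GC correction.

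Ribosome biogenesis had the most genes of any list, 23 of 75 tested. NOLC1, a nucleolar phosphoprotein that chaperones small nucleolar particles (chr10:102152176-102163871), was at 124, 139 and 143 FPKM in WT, 76.8, 80.3 and 72.6 FPKM under the A20-KO label, and 73.7, 79.1 and 78.5 FPKM in A20-RE. PA2G4, which joins pre-ribosomes, was at 75.4, 70.8 and 82.1 FPKM in WT, 39.6, 37.2 and 49.7 FPKM under the A20-KO label, and 36.8, 36.9 and 44.96 FPKM in A20-RE. MRTO4, an assembly factor of the large subunit (chr1:19251539-19260128), was at 49.4, 42.4 and 51.1 FPKM in WT, 26.4, 25.8 and 28.4 FPKM under the A20-KO label, and 21.4, 20.01 and 25.9 FPKM in A20-RE. In all 3 genes the lowest WT library was above the highest other one, and A20-KO and A20-RE were close. DDX18, a nucleolar helicase, had the lowest ratio of the list, at 23.6 ± 3.42, 10.1 ± 0.799, and 11.9 ± 0.754 FPKM. UTP4 (chr16:69131291-69231130), UTP15, WDR43 (chr2:28894643-28948222), WDR36, WDR3, HEATR1 and NOL11 are parts of the small-subunit processome and had ratios from 0.488 (UTP15) to 0.568 (WDR3). BRIX1, RPF2, PAK1IP1, NIP7, GRWD1, RRP1B, URB2 and DHX33 act on either subunit or on the copying of its RNA and had ratios from 0.454 (PAK1IP1) to 0.542 (NIP7). ESF1, PNO1, MTREX and DNTTIP2 complete the list, between 0.552 (PNO1) and 0.568 (DNTTIP2).

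In 15 of the 23 the A20-RE mean was above that of A20-KO, the highest ratio being 1.23 in NIP7. Of the 23, 8 met the rule after GC correction. The 52 genes of the list outside the set all lay below 0 in A20-KO against WT, with a median log2 difference of -0.53, and 2 of them were called. Exons of HEATR1 share 23.2% of their bases with LGALS8 on the other strand, and those of NIP7 20.2% with COG8. Whether reads were counted by strand is not stated in the sources, and without strand the reads of such a pair cannot be told apart.

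RNA polymerases I and III, which copy ribosomal and transfer RNA, gave 6 of 32 tested genes. POLR1A and POLR1B, the large subunits of polymerase I, were at 11.9 ± 0.508, 6.73 ± 1.21, and 5.99 ± 0.726 FPKM and at 14.8 ± 1.01, 7.596 ± 1.19, and 7.48 ± 0.453 FPKM. POLR3G and POLR3B, of polymerase III, were at 21.5 ± 5.08, 10.9 ± 0.173, and 11.7 ± 0.674 FPKM and at 3.995 ± 0.281, 2.15 ± 0.1895, and 2.08 ± 0.373 FPKM. GTF3C2, of its factor TFIIIC, and CD3EAP, a subunit of polymerase I, had ratios of 0.507 and 0.552. The ratio of A20-RE to A20-KO ran from 0.892 (POLR1A) to 1.08 (POLR3G), and 3 of the 6 met the rule after GC correction. CD3EAP shares 45.1% of its exonic bases with genes on the other strand, most of them with ERCC1.

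UTP4, WDR43 and MRTO4 are shown for an E-box, CACGTG, the element bound by MYC and its relatives. The E-box reads the same on both strands. It begins 16 bases before the start in UTP4 (chr16:69132399-69132698, plus strand), at position 4 after the start in WDR43 (chr2:28894417-28894716, plus strand), and at position 15 after it in MRTO4 (chr1:19251555-19251854, plus strand).
UTP4: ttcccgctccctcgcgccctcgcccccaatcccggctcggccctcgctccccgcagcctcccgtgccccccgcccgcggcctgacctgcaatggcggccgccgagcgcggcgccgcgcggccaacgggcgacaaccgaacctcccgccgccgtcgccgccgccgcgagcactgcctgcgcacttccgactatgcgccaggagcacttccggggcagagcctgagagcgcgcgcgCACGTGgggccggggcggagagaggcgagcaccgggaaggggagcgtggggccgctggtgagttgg
WDR43: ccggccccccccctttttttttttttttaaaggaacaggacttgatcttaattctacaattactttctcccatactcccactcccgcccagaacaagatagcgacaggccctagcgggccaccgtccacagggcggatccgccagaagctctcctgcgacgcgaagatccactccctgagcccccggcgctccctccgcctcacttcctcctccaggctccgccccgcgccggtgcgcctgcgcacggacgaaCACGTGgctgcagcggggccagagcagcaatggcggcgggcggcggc
MRTO4: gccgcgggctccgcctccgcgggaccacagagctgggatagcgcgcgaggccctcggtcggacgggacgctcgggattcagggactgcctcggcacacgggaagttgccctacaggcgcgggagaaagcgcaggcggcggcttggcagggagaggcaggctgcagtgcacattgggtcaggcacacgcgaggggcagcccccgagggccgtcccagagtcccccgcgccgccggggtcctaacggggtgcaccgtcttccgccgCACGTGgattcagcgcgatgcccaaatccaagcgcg

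Over the set, 222 genes matched a RefSeq promoter window and 49 did not. A match below is a description of letters and not of binding. An E2F octamer was in 33 of the 222 windows (14.9%), in 5.66% of 9200 windows of eligible genes, and in 3.31% of all 35116 windows of the table. A CHR hexamer was in 50 (22.5%), against 10.2% and 16.4%. The E-box was in 34 (15.3%), against 10.3% and 7.26%. The letters CCAAT, also searched on both strands and not marked above, were in 86 (38.7%), against 36.9% and 34.6%. CHR hexamers were in 12 of 17 windows of the spindle list that belong to the set and in 9 of 22 of its other eligible genes, and in 6 of 7 and 16 of 31 for the kinetochore list. E2F octamers were in 2 of 6 windows of replication origin genes of the set and in 10 of 21 of the others. The E-box was in 6 of 17 windows of ribosome biogenesis genes of the set and in 19 of 43 of the others. In these lists, windows of genes outside the set held the same letters too. No test was made of these shares, as the genes were not drawn at random.

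Nuclear pores and nuclear transport gave 12 genes. Of 32 tested genes of the pore, 8 belonged to the set, from its outer ring (NUP160), its inner ring (NUP188, NUP205, NUP155), its basket (NUP153, NUP50), its cytoplasmic face (NUP88), and its membrane anchor (NDC1). NUP188 was at 32.4, 31.6 and 34.4 FPKM in WT, 17.95, 18.6 and 16.8 FPKM under the A20-KO label, and 13.6, 15.04 and 15.3 FPKM in A20-RE. NUP153 was at 24.9, 19.4 and 19.3 FPKM in WT, 11.4, 11.9 and 7.83 FPKM under the A20-KO label, and 10.7, 11.1 and 9.498 FPKM in A20-RE. NUP88, with the lowest ratio of the 8, was at 14.9 ± 1.65, 6.45 ± 0.342, and 5.45 ± 0.457 FPKM, and 18.7% of its exonic bases are shared with genes on the other strand, RPAIN among them. WT was apart in each, and the 8 ratios of A20-KO to WT lay between 0.436 (NUP88) and 0.565 (NUP160). After GC correction 4 of the 8 met the rule. Of the 24 other pore genes, 23 lay below 0 in A20-KO against WT with a median log2 difference of -0.55, and 4 were called lower in A20-RE against WT.

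CSE1L, which returns importin alpha to the cytoplasm, was the most abundant transport gene of the set and was at 121, 82.6 and 83.6 FPKM in WT, 38.9, 39.5 and 36.6 FPKM under the A20-KO label, and 30.6, 33.3 and 33.2 FPKM in A20-RE. WT stood far above, and all A20-RE values lay under those of the libraries labelled A20-KO. TNPO1 and IPO11, which carry proteins into the nucleus, and XPO4, an exportin, were at 17.3 ± 2.78, 9.52 ± 1.59, and 10 ± 1.07 FPKM, at 7.28 ± 1.397, 3.1 ± 0.467, and 3.04 ± 0.354 FPKM, and at 7.52 ± 1.12, 3.91 ± 0.587, and 4.09 ± 0.517 FPKM. These 4 were of 28 tested genes of importins, exportins and the RAN system, and 1 of them met the rule after GC correction.

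Of 13 tested SR splicing proteins, 3 belonged to the set. SRSF2 was at 113, 87 and 95.4 FPKM in WT, 50.7, 46.4 and 56.2 FPKM under the A20-KO label, and 54.6, 54.3 and 64.05 FPKM in A20-RE, SRSF3 at 62.04 ± 8.02, 32.2 ± 1.82, and 27.5 ± 2.07 FPKM, and SRSF10 at 17.2 ± 3.32, 9.602 ± 0.921, and 9.403 ± 0.273 FPKM. SRSF2 shares 36.7% of its exonic bases with MFSD11 on the other strand, and none of the 3 met the rule after GC correction. Of 32 tested polycomb proteins, which keep genes silent, 4 belonged to the set. SUZ12, a core subunit of the complex that methylates histone H3, was at 22.6, 17 and 14.02 FPKM in WT, 7.47, 9.01 and 6.501 FPKM under the A20-KO label, and 7.64, 8.06 and 7.55 FPKM in A20-RE. BMI1, of the other polycomb complex, was at 12.6 ± 2.61, 6.596 ± 0.326, and 8.09 ± 0.268 FPKM, and SCML1 and SCML2 had ratios of 0.362 and 0.538. All 4 had A20-RE means above those of A20-KO, with ratios from 1.003 (SCML1) to 1.22 (BMI1). Of the 4, 2 met the rule after GC correction. The 28 other polycomb genes had a median log2 difference of -0.06 in A20-KO against WT.

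The largest single difference of the set was in the HOXB cluster. HOXB8 (chr17:48611377-48614939, minus strand) was at 11.5, 10.96 and 13.8 FPKM in WT, 0.943, 0.754 and 1.07 FPKM under the A20-KO label, and 1.02, 0.747 and 1.34 FPKM in A20-RE, a ratio of A20-KO to WT of 0.0838. HOXB6 (chr17:48595751-48604992) was at 7.18, 9.85 and 8.45 FPKM in WT, 2.59, 2.16 and 2.92 FPKM under the A20-KO label, and 2.76, 2.86 and 2.59 FPKM in A20-RE. HOXB5 (chr17:48591257-48593961) was at 11.2, 10.1 and 12.1 FPKM in WT, 3.69, 2.73 and 4.06 FPKM under the A20-KO label, and 3.08, 2.72 and 3.497 FPKM in A20-RE. WT stood far above the rest in these 3 genes, and the ranges of the libraries labelled A20-KO and A20-RE overlapped in each. HOXB6 lies between the other two, which are 17415 bases apart. All 3 met the rule after GC correction, with ratios of 0.0737, 0.278 and 0.297. HOXB6 shares 16.3% of its exonic bases with HOXB-AS3.

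Their neighbours differed from one another. HOXB4 and HOXB3 were also low in the libraries labelled A20-KO, but their ratio of A20-RE to A20-KO exceeded 1.25, so that they are outside the set. HOXB4 was at 2.53, 4.44 and 4.48 FPKM in WT, 0.208, 0.325 and 0.183 FPKM under the A20-KO label, and 0.433, 0.333 and 0.2201 FPKM in A20-RE, and was called lower in A20-KO against WT (log2 difference -3.51, limma, adjusted p = 1.9e-04). HOXB3 was at 1.68, 2.14 and 1.74 FPKM in WT, 0.447, 0.453 and 0.351 FPKM under the A20-KO label, and 0.769, 0.686 and 0.6596 FPKM in A20-RE, with a log2 difference of -1.92 (limma, adjusted p = 2.6e-04). The annotated span of HOXB7 (chr17:48607227-48633572) begins between HOXB6 and HOXB8 and holds all of HOXB8 and HOXB9 on the same strand, with 0 exonic bases shared. The span of HOXB3 covers HOXB4, HOXB5 and most of HOXB6, and 16.6% of the exonic bases of HOXB6, 4.23% of those of HOXB4 and 0 of those of HOXB5 are also exonic in HOXB3. HOXB7 and HOXB9 had ratios of A20-KO to WT of 0.645 and 0.586, HOXB2 of 0.835, and HOXB13 of 1.44. In limma the log2 differences of HOXB7, HOXB9 and HOXB13 in A20-KO against WT were -0.63, -0.77 and 0.53 (limma, adjusted p = 0.0061, 0.0013 and 0.013), none past the fold threshold. HOXB1 had no read in any library.

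Of the other patterning factors, HOXA9, of the HOXA cluster, was at 19.4 ± 0.431, 10.9 ± 0.742, and 9.41 ± 0.932 FPKM, and FOXA1, a pioneer factor of endoderm, at 1.02 ± 0.0977, 0.489 ± 0.119, and 0.613 ± 0.154 FPKM. They and the 3 HOXB genes are among the 6 genes of the set in a list of 140 tested homeobox and other patterning genes, of which 4 met the rule after GC correction. That list held 8 genes called lower and 8 called higher in A20-KO against WT. Outside the set and beside HOXB4 and HOXB3, FOXQ1 was called lower (log2 difference -1.47). DLX2 had a log2 difference of 1.79 and was called higher, as was DLX3, with mean levels of 0.0197 FPKM in WT and 0.388 FPKM in the libraries labelled A20-KO.

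Several genes of low ratio code for secreted or surface proteins, a grouping made after their values were seen. The lists closest to it held few genes of the set and more genes called higher than lower in A20-KO against WT. The list of extracellular matrix had 1 of 29 tested genes in the set (COL12A1), with 1 gene called lower and 5 higher. Growth factors and receptor tyrosine kinases had 1 of 40 (FGF9), with 1 lower and 3 higher, and G protein-coupled and adhesion receptors 1 of 98 (CXCR4), with 2 lower and 8 higher. DPEP1, a membrane dipeptidase (chr16:89613308-89638456), was at 3.68, 5.56 and 6.24 FPKM in WT, 0.601, 0.713 and 0.564 FPKM under the A20-KO label, and 0.594, 0.353 and 0.572 FPKM in A20-RE. FGF9, a fibroblast growth factor (chr13:21671383-21704498), was at 1.96, 1.53 and 1.38 FPKM in WT, 0.208, 0.251 and 0.236 FPKM under the A20-KO label, and 0.123, 0.142 and 0.259 FPKM in A20-RE. ISM1, the secreted protein isthmin (chr20:13221771-13300651), was at 1.86, 1.76 and 1.68 FPKM in WT, 0.349, 0.267 and 0.298 FPKM under the A20-KO label, and 0.346, 0.451 and 0.352 FPKM in A20-RE. WT stood apart in all 3, and the ratios of A20-KO to WT were 0.138, 0.192 and 0.217. CEMIP, which takes part in the breakdown of hyaluronan, was at 12.1, 13.2 and 12.6 FPKM in WT, 3.75, 4.41 and 3.19 FPKM under the A20-KO label, and 4.58, 4.49 and 4.16 FPKM in A20-RE. FGF2, another growth factor, was at 1.498 ± 0.235, 0.414 ± 0.0412, and 0.421 ± 0.0893 FPKM, with 11.9% of its exonic bases shared with NUDT6. COL12A1, a collagen, was at 5.59 ± 0.4897, 2.804 ± 0.587, and 3.17 ± 0.569 FPKM, and CXCR4, the receptor of the chemokine CXCL12, at 1.88 ± 0.563, 0.775 ± 0.144, and 0.685 ± 0.145 FPKM.

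ICAM1, an adhesion molecule and known NF-kB target, was at 1.71, 2.32 and 2.73 FPKM in WT, 0.777, 0.692 and 0.6599 FPKM under the A20-KO label, and 0.646, 0.707 and 0.681 FPKM in A20-RE. WT was far above both other groups, whose ranges overlapped, and 23.6% of its exonic bases are shared with genes on the other strand. It was the only gene of the set among 28 tested NF-kB targets. Of that list, 2 genes were called lower and 2 higher in A20-KO against WT, and 4 and 4 in A20-RE against WT. SULT1A1, a phenol sulfotransferase with close paralogs between which reads could have been split, was at 2.69 ± 0.4598, 0.936 ± 0.194, and 0.854 ± 0.0507 FPKM, and GALNT7, which starts O-linked sugar chains, at 5.11 ± 0.396, 2.43 ± 0.497, and 2.91 ± 0.256 FPKM.

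Another 3 genes of very low ratio do not share a list. ABCE1, which recycles ribosomes after translation, was at 46.1, 34.6 and 30.3 FPKM in WT, 10.4, 10.6 and 10.5 FPKM under the A20-KO label, and 11.4, 11.8 and 11.5 FPKM in A20-RE. FAM129A, linked to the stress response of translation, was at 2.94, 2.55 and 2.42 FPKM in WT, 0.752, 0.816 and 0.538 FPKM under the A20-KO label, and 0.674, 0.833 and 0.665 FPKM in A20-RE. TTPA, the transfer protein of vitamin E, was at 1.79, 1.68 and 1.24 FPKM in WT, 0.396, 0.494 and 0.395 FPKM under the A20-KO label, and 0.483, 0.5904 and 0.328 FPKM in A20-RE. ABCE1 was by far the most abundant of these 3, and its A20-RE values all lay above those of the libraries labelled A20-KO.

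The most abundant gene of the set was EIF4G2, a translation factor related to eIF4G, at 156, 129 and 131 FPKM in WT, 81.6, 85.5 and 63.7 FPKM under the A20-KO label, and 67.98, 73.6 and 68.9 FPKM in A20-RE. TUBA1C, an alpha-tubulin with near-identical paralogs, was at 104 ± 13.8, 54.4 ± 5.204, and 49.7 ± 5.74 FPKM, and ANP32E, a chaperone that removes the histone variant H2A.Z, at 58.8 ± 10.8, 31.3 ± 1.58, and 27.3 ± 0.744 FPKM. In EIF4G2 the A20-KO and A20-RE ranges overlapped. Together with NOLC1, XRCC5, SRSF2, CSE1L, TPX2, PA2G4 and SRSF3 these are the 10 genes with the highest WT means.

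Zinc finger genes gave 16 of 449 tested, of which 10 met the rule after GC correction. The 4 with the highest WT mean were ZNF367 at 11.9 ± 0.555, 4.56 ± 0.985, and 4.92 ± 0.333 FPKM, ZBTB2 at 10.3 ± 0.706, 4.04 ± 0.246, and 3.69 ± 0.348 FPKM, ZNF827 at 5.81 ± 0.684, 3.22 ± 0.666, and 3.799 ± 0.363 FPKM, and ZNF689 at 5.19 ± 0.524, 2.47 ± 0.325, and 2.39 ± 0.379 FPKM. The other 12 had WT means from 1.09 (ZNF530) to 4.803 FPKM (ZNF480). Many of these genes are close paralogs, between which reads could have been split. Of the whole list, 24 genes were called lower and 6 higher in A20-KO against WT. Outside the set, ZNF467, ZFP36 and ZNF358 had the largest differences called higher, with log2 values of 1.37, 1.26 and 1.20. ZNF91, ZNF502 and ZNF595, the lowest of those called, were listed at 0 in all 3 libraries labelled A20-KO, against WT means of 0.826, 0.7395 and 0.7004 FPKM.

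Solute carriers gave 4 of 266 tested genes, of which 2 met the rule after GC correction. SLC16A1, the lactate transporter MCT1, was at 43.2, 34.5 and 34.3 FPKM in WT, 21.6, 22.7 and 18.5 FPKM under the A20-KO label, and 22.9, 23.2 and 24.2 FPKM in A20-RE. SLC25A13, the mitochondrial aspartate and glutamate carrier, was at 7.81 ± 0.361, 3.41 ± 0.356, and 3.404 ± 0.578 FPKM, SLC7A2, a carrier of cationic amino acids, at 4.33 ± 0.413, 2.37 ± 0.384, and 2.84 ± 0.402 FPKM, and SLC16A14 at 3.36 ± 0.423, 1.11 ± 0.192, and 1.23 ± 0.228 FPKM. Of the list, 6 genes were called lower and 17 higher in A20-KO against WT. The lowest outside the set were SLC16A6, SLC1A3 and SLC43A3 (log2 differences -2.38, -1.38 and -1.29), and the highest SLC22A31, SLC7A9 and SLC45A1 (1.61, 1.54 and 1.53).

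The set was spread over the genome. Its share of eligible genes was highest on chromosomes 13 (7 of 182, 3.85%), 5 (18 of 478, 3.77%) and 2 (25 of 727, 3.44%), and lowest on chromosomes 21 (1 of 101, 0.990%) and 22 (3 of 296, 1.01%). Wilson 95% intervals of these shares, which cover counting error only, were 1.88% to 7.73% for chromosome 13 and 0.175% to 5.40% for chromosome 21. Of the 271 genes, 76 lay within 1 Mb of another one, in 48 pairs. PIGW lies within MYO19 on the opposite strand (4291 bases), and SNX5 and MGME1 share 68 bases at their ends. HOXB5 and HOXB6 are 1789 bases apart, NOLC1 and PPRC1 1844 bases, RFWD3 and MLKL 4973 bases, and DHX33 and NUP88 20751 bases. The 2687 eligible genes within 1 Mb of a gene of the set that are not themselves in it had a median log2 ratio of A20-KO to WT of -0.03, where all eligible genes had -0.06.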

How the data were processed

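RNA of HCT116 cells was sequenced as 150 bp paired-end reads in 9 libraries, 3 of WT, 3 of A20-KO, and 3 of rescue cells. Per the submitters' processing notes the reads were aligned with HISAT2 2.0.5 and counted with featureCounts 1.5.0-p3, and per the Methods the authors tested them with DESeq2, which was not run here. The authors deposited FPKM per gene, and all 9 columns were used. The genome build is not given in the sources used here, but gene starts and ends equal those of GENCODE 29 (GRCh38) for 100% of genes. FPKM times gene length was a whole multiple of 1 read, within 0.1 read, for 100% of the values, which gave the reads per library. Groups came from the labels, in which OE marks the rescue cells.

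The rule of the set and the lists of genes were chosen with earlier results of these data known, and 16 lists of complexes after the members had been seen. The rule was applied to the deposited FPKM. Because FPKM are not counts, limma 3.58.1 in R 4.3.3 was fitted to log2(FPKM + 0.1) with a variance trend and the group as the only term, over 21636 genes with a mean of at least 0.1 FPKM. On this scale the differences of low genes come out too small. Genes were called at an adjusted p-value under 0.05 with a log2 difference above 1 in size. The script was tested on simulated data. GC content came from the longest GENCODE 29 transcript.

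Promoters were RefSeq windows (GRCh38.p14) matched by symbol, and for 54 genes with several windows that nearest to the 5′ end in the table was taken. Named are the 10 genes with the highest WT mean, the 10 with the lowest ratio of A20-KO to WT, the 3 nearest each limit on either side, up to 4 genes of the set per list taken over from earlier work, and in such lists with at least 3 genes of the set up to 3 others called lowest and up to 3 called highest. Genes of the 16 lists, the genes whose promoters are shown, the HOXB neighbours and FGF2 were named after their values were seen. The genes within 1 Mb of another one are named where they lie closest. The same-numbered libraries of different groups deviated from their group means with correlations of -0.03 to 0.12, so the numbers were not taken to pair them. Alternatives were other pseudocounts, filters, scalings, fold limits and limits of the rule, the replicate block, each library left out, and limma-voom on recovered reads. A GC correction in 50 bins, calls without the fold limit, and scaling to total reads were added after seeing the data. Some genes are not reported here.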

Additional observations from a re-analysis of the deposited data

How the results depend on the processing

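The set held 2.39% of the eligible genes, and 1.51% with a pseudocount of 1 FPKM, 1.08% at a ratio of A20-KO to WT of at most 0.5, 1.17% with narrower limits of A20-RE to A20-KO (9/10 to 10/9), and 1.67% to 3.30% with 1 library left out, the fewest without WT replicate 1. After GC correction it held 1.64%, of which 115 genes were of the 271. Of 542 log2 ratios to WT of single genes, 173 moved by more than the replicate spread with a pseudocount of 1 and 137 after GC correction, and since the genes were chosen by these ratios, their direction says nothing on stability.

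In A20-KO against WT 1512 genes were called in all, and 472 with a pseudocount of 1, 931 at a mean of at least 1 FPKM, 4816 by adjusted p alone, 7686 by unadjusted p, and 1184 to 1777 with 1 library left out. The genes of the set called lower went from 120 to 47 with a pseudocount of 1, 73 after GC correction (also with the replicate block), 266 at a log2 difference above 0.8, 271 by adjusted p alone, 271 by unadjusted p, and 79 to 162 with 1 library left out, the fewest without WT replicate 1. The set was chosen on this contrast, so the rule bears on these counts of its genes. For this contrast, counts over all genes after GC correction and at a log2 difference above 0.8 are not given here. Genes of the 34 lists called lower were 32, 50, 287 and 445 under those first 4 settings for all genes and 68 to 80 with 1 library left out.

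In A20-RE against WT 2571 genes were called, and 976, 1555, 6735 and 8972 under the same 4 settings, and 2258 to 2574 with 1 library left out. Genes of the set were 155, and 84 with a pseudocount of 1, 267 by adjusted p alone, 271 by unadjusted p, and 114 to 180 with 1 library left out. List genes were 60 with a pseudocount of 1, 343 by adjusted p alone, 457 by unadjusted p, and 116 to 132 with 1 library left out.

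In A20-RE against A20-KO 517 genes were called, and 155, 289, 1940 and 5521 under the same 4 settings, 804 at a log2 difference above 0.8, and 256 to 621 with 1 library left out. It was 310 without A20-KO replicate 1, 324 without A20-KO replicate 3, 256 without A20-RE replicate 1 and 268 without A20-RE replicate 2. Genes of the set were 0 in each of these, except 16 by unadjusted p.

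With the replicate block, although the numbers were not shown to pair the libraries, 1557, 2573 and 542 genes were called in the 3 comparisons, and 120, 155 and 0 of the set. Of genes chosen without 1 replicate number, 125, 112 and 125 met all limits in the libraries left out, which is no independent check. The WT value was above both others in 195, 402 and 297, an order that 44.8%, 44.7% and 43.7% of eligible genes had. The deposited values already carried median-of-ratios scaling, which left 271 genes, and scaling to total reads gave 279. The cause of these changes was not tested, apart from the fewer libraries, genes or limits that a setting itself imposes. With 3 libraries a group and at least 13 reads behind each value of the set, depth limits the genes of low level most.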
